A study of Homo sapiens with 4 samples.

Results

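The TGF-beta superfamily genes described here are 50 genes of Nodal, Activin, TGF-beta and BMP signalling. They are the rows of the expression table whose gene name stands on a list of the pathway's ligands, receptors, antagonists, SMAD proteins and direct targets, and they are 50 of the 60671 genes in the table. Membership rests on the gene name and on no measured value, but the list was chosen with earlier results of these data known. The samples were H9 cells, a widely used line of human embryonic stem cells, grown in mTeSR medium with no further treatment. There were 4 libraries of poly(A)-selected RNA, 2 from cells labelled as control and 2 from cells labelled CFIm25 KO+ 3Flag-CFIm25 overexpression, called KO+OE here. CFIm25, encoded by NUDT21, is a subunit of the cleavage factor that helps choose the cleavage and polyadenylation site of a transcript. The KO+OE cells derive from 1 clone edited with CRISPR-Cas9, called a knockout in the sample labels and a knockdown in the series title, and described in the study as making a shortened protein at a low level, to which tagged CFIm25 was added back with a lentivirus. Edited cells without the added CFIm25 were not analysed here, so the comparison sets the re-expressing clone against control cells.

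Ligands of this superfamily bind pairs of type I and type II serine/threonine kinase receptors, and the type I receptor then phosphorylates a receptor SMAD. Nodal, Activin and TGF-beta ligands act through SMAD2 and SMAD3, BMPs act through SMAD1, SMAD5 and SMAD9, and both groups need SMAD4 to act on genes in the nucleus. Human embryonic stem cells depend on Activin or Nodal signals to stay pluripotent, while BMP signals drive them to differentiate, and the ID genes are the usual readout of the BMP branch. Accordingly 27 of the genes were placed in the Nodal/Activin/TGF-beta arm, 18 in the BMP arm and 4 among the components that both use, and GDF15, a distant member of the family that signals through a receptor outside it, was kept apart.

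Values are in TPM, the share of transcripts of each gene corrected for transcript length and scaled to a common total, so levels of different genes can be compared within a library. The depth of the libraries is unknown, since TPM does not keep it. Between 12179 and 12332 genes reached 1 TPM in a library. The level of NUDT21 was 161 and 152 TPM in control cells against 162 and 157 TPM in KO+OE cells, a log2 fold change of 0.027 (95% confidence interval −0.086 to 0.14), in which native and added transcripts cannot be told apart. All 10 pluripotency markers examined reached a mean of 1 TPM, with sums of 3265 to 3305 TPM, against 0 of 5 neural markers, 1 of 9 markers of mesoderm and endoderm (GATA6, 4.35 to 8.39 TPM) and 1 of 9 markers of trophoblast and amnion (KRT7, 17.3 to 20.6 TPM). Of 8 fibroblast markers 4 reached it. These were THY1 at 1228 to 1352 TPM, COL1A1 at 53.9 to 55.6 TPM, COL1A2 at 13.0 to 14.5 TPM and PDGFRB at 11.6 to 15.0 TPM. THY1 is not particular to fibroblasts. PDGFRA ranged from 0.36 to 0.69 TPM, DCN and COL3A1 were at or below 0.08 TPM and LUM was listed at 0. Whether any fibroblasts were present was not tested. In such bulk RNA, fewer cells with a transcript and less transcript per cell cannot be told apart. The share of mitochondrially encoded transcripts was 21.0% and 21.1% in control and 21.6% and 22.1% in KO+OE cells.

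The promoters of 4 genes are shown as examples of both arms. ID1 and ID3 are the direct BMP targets with the highest levels here, NODAL is the ligand that names the other arm, and SMAD6 is a BMP-induced inhibitor whose window holds the palindrome to which SMAD proteins bind. Each sequence is the 250 bases that precede an annotated start in RefSeq (GRCh38.p14), written 5′ to 3′ on the strand of the gene, with motif matches in capitals. The ID1 window is chr20:31605039-31605288 on the plus strand, and the gene follows at positions 31605289 to 31606510. The ID3 window is chr1:23559502-23559751 on the minus strand, and the gene lies at positions 23557926 to 23559501. The NODAL window is chr10:70441682-70441931 on the minus strand, before a start inside the annotated gene at positions 70431936 to 70447951. The SMAD6 window is chr15:66701986-66702235 on the plus strand, and the gene follows at positions 66702236 to 66782849.
ID1: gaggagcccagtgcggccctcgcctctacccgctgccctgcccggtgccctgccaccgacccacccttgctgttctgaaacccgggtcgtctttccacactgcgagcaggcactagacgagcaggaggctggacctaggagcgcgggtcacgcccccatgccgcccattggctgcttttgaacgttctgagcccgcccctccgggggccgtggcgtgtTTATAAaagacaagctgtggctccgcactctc
ID3: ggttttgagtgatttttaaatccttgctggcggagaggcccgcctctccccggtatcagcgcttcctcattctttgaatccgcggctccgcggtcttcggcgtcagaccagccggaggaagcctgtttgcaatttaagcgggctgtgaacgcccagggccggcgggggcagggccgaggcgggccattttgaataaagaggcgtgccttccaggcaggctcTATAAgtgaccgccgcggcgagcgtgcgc
NODAL: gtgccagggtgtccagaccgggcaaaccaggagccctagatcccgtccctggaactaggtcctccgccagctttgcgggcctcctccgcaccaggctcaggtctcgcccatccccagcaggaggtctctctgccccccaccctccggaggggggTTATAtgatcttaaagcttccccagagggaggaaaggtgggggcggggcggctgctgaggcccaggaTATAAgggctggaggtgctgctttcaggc
SMAD6: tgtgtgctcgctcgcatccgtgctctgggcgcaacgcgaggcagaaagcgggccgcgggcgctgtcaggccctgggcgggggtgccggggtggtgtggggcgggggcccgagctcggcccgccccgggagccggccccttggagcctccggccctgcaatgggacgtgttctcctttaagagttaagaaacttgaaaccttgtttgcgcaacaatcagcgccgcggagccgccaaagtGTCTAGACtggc

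Capitals in ID1, ID3 and NODAL mark TATAA on either strand, with overlapping matches merged, and capitals in SMAD6 mark GTCTAGAC. The TATAA match of ID3 starts 29 bases before the gene's start, 1 of the 2 places in NODAL also starts 29 bases before its start, and the matches of ID1 start 32 and 31 bases before its start. TATAA was chosen after the sequences had been seen. It occurred in 15 of 71 windows held for 42 of the 50 genes (21.1%), against 18.9% of all 35116 windows. GTCTAGAC starts 12 bases before the start of SMAD6, in 1 of the 71 windows (1.41%), against 0.182% of all windows. SMAD6 was printed with this match known, and a share that rests on 1 window shows no enrichment. CAGACA, the motif to which SMAD3 and SMAD4 bind, occurred in 15.5% of the members' windows and 13.6% of all windows, and GGCGCC, a GC-rich SMAD motif, in 23.9% and 16.4%. TGTNNATT, the motif of the Nodal partner FOXH1, occurred in 7.04% and 9.88%. These are matches of letters on both strands and were not tested for binding.

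The levels of the 50 genes spread from 0 to 226 TPM, and few of them carried most of the transcripts. Means over the 4 libraries were at or above 50 TPM for 4 genes (TDGF1, GDF15, ID1 and ID3), between 5 and 50 TPM for 13, between 1 and 5 TPM for 16 and above 0 but under 1 TPM for 14. GDF1, INHBB and NOG were listed at 0 in all 4 libraries. A mean of 1 TPM or more was required for the test, which left 33 of the 50 genes and 12319 genes in all. The remaining 17 genes are given as levels with no test.

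**Figure D1:**
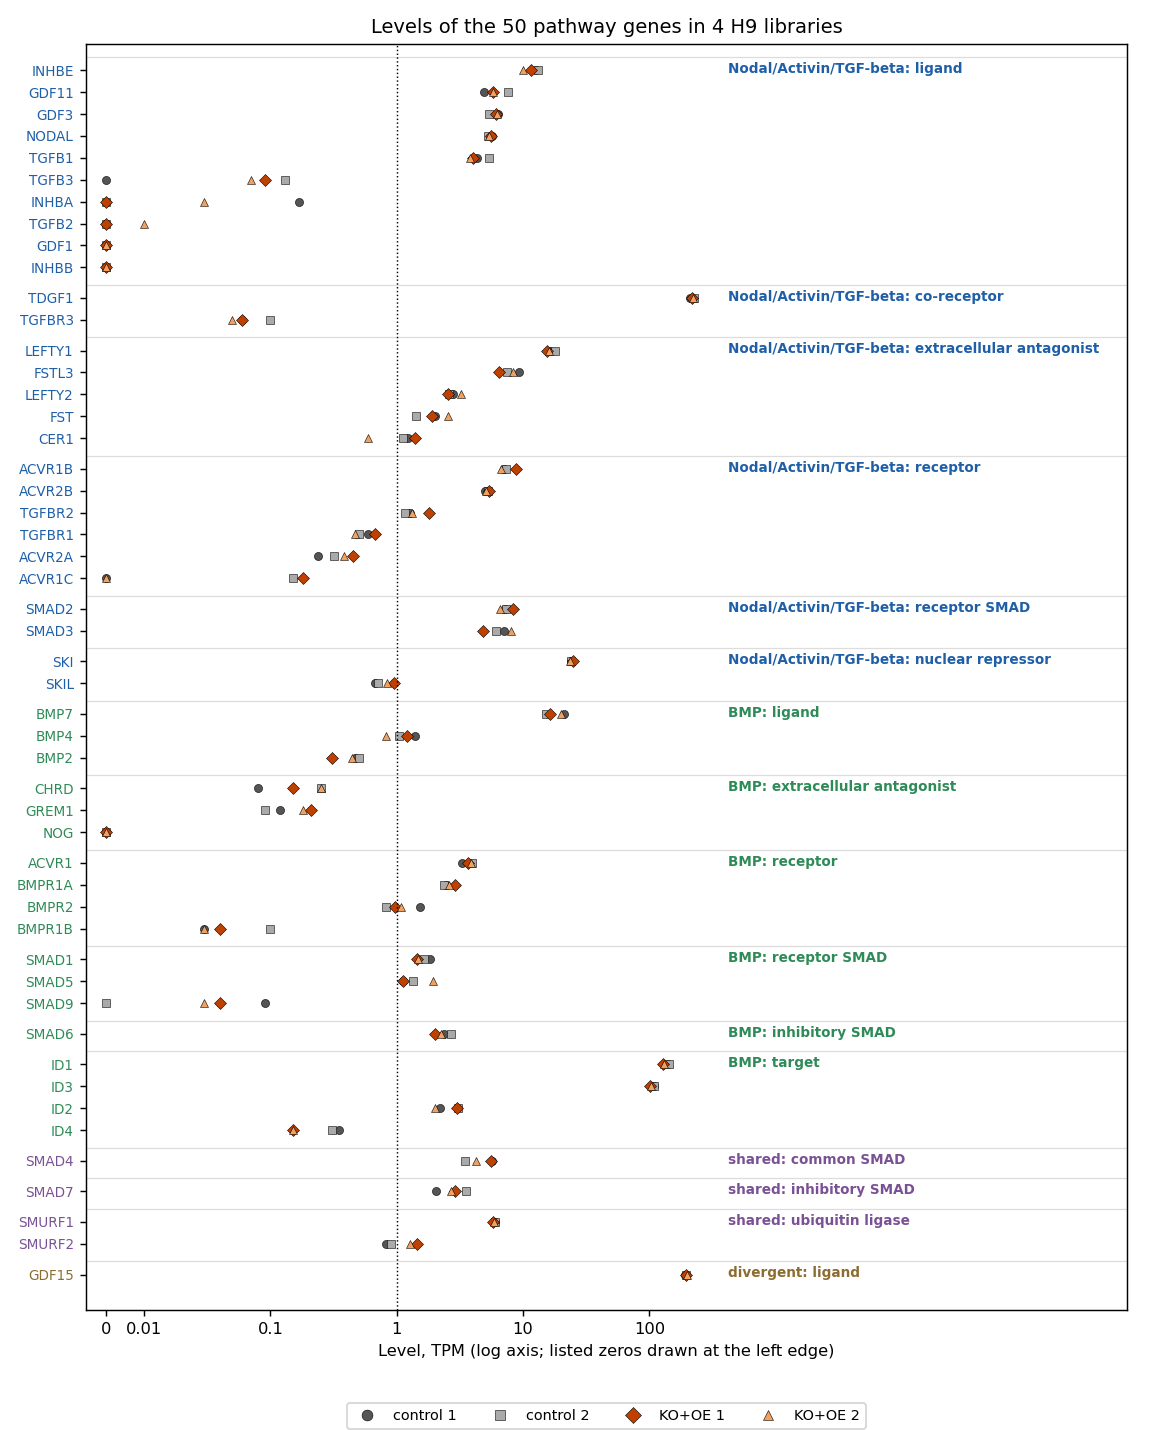
Level of each of the 50 genes in each library, in TPM on a log axis, ordered by arm and role; the dotted line marks 1 TPM and listed zeros are drawn at the left edge. TDGF1, GDF15, ID1 and ID3 stand above 50 TPM in every library, while the ligands INHBB and GDF1 and the antagonist NOG are listed at 0.

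Among the ligands that act through SMAD2 and SMAD3, 5 of 10 were tested. NODAL, the ligand that patterns the early embryo, measured 5.70 and 5.30 TPM in the control libraries and 5.57 and 5.43 TPM in the KO+OE libraries. GDF3, a Nodal-related ligand of pluripotent cells, measured 6.32 and 5.39 TPM in control and 6.07 and 6.19 TPM in KO+OE cells. GDF11, a close relative of myostatin, measured 4.89 and 7.57 TPM in control and 5.80 and 5.82 TPM in KO+OE cells. For each of these 3 ligands the groups overlapped, and the widest gap was between the control libraries of GDF11.

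INHBE, which encodes an inhibin beta chain known mainly from liver, had the highest level of these 10 ligands. It measured 12.6 and 13.3 TPM in the control libraries and 11.6 and 10.1 TPM in the KO+OE libraries. The KO+OE values lay below both controls, with a log2 fold change of −0.24 (95% confidence interval −0.49 to 0.020, unadjusted p = 0.0639, limma adjusted p = 0.931), which did not pass the test. Leaving out KO+OE replicate 2 or 1 gave −0.14 or −0.33. TGFB1, the founding TGF-beta ligand, measured 4.32 and 5.43 TPM in control and 3.99 and 3.80 TPM in KO+OE cells. Its log2 fold change of −0.26 (−0.63 to 0.11) did not pass the test either (limma unadjusted p = 0.133, adjusted p = 0.937), and leaving out control replicate 2 or 1 gave −0.12 or −0.39. Transcripts of the other ligands were scarce. Ligand protein supplied by the medium would not appear in any of these values. INHBA, the chain of Activin A, measured 0.17 and 0 TPM in control and 0 and 0.030 TPM in KO+OE cells, and INHBB was listed at 0. TGFB3 measured 0 and 0.13 TPM in control and 0.090 and 0.070 TPM in KO+OE cells, and TGFB2 was listed at 0 in all but KO+OE 2, at 0.010 TPM. GDF1 was also listed at 0, but 100% of its exonic bases lie in exons of CERS1 on the same strand, which measured 33.1 to 38.9 TPM, so its own level is uncertain.

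The co-receptor TDGF1 (Cripto), which lets NODAL engage its receptors, was the most abundant gene of the pathway list. It measured 211 and 226 TPM in the control libraries and 216 and 221 TPM in the KO+OE libraries. The KO+OE values fell between the control values, and the log2 fold change was 0.00062 (95% confidence interval −0.11 to 0.12). TDGF1 shared 38.1% of its 50-base stretches with the related locus TDGF1P3, which measured 10.1 to 12.4 TPM, so how reads were divided between them is uncertain, above all for TDGF1P3. TGFBR3 (betaglycan), the co-receptor for TGF-beta, did not exceed 0.10 TPM.

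All 5 extracellular antagonists of this arm were tested. LEFTY1, a Nodal target that blocks Nodal signalling, measured 16.4 and 17.9 TPM in the control libraries and 15.6 and 16.0 TPM in the KO+OE libraries. Its KO+OE values lay below both controls, by −0.11 on the log2 scale (−0.31 to 0.087), without passing the test (limma unadjusted p = 0.206, adjusted p = 0.942), and leaving out control replicate 2 or 1 gave −0.052 or −0.17. LEFTY2 measured 2.77 and 2.59 TPM in control and 2.55 and 3.24 TPM in KO+OE cells. LEFTY1 shared 31.3% of its 50-base stretches with LEFTY2, and 25.0% of those of LEFTY2 occurred in LEFTY1, so how reads were divided between them is uncertain. The follistatins bind Activin: FSTL3 ranged from 6.46 to 9.33 TPM and FST from 1.42 to 2.56 TPM, with overlapping groups. CER1, a secreted inhibitor of Nodal and BMP, ranged from 0.59 to 1.4 TPM, and both of those extremes were KO+OE libraries.

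The receptors of this arm spread over a wide range of levels. The type I receptor ACVR1B ranged from 6.73 to 8.74 TPM and the type II receptor ACVR2B from 5.01 to 5.39 TPM. The TGF-beta receptors TGFBR1 and TGFBR2 ranged from 0.47 to 0.67 TPM and from 1.16 to 1.81 TPM. For TGFBR2 both KO+OE values (1.81 and 1.33 TPM) lay above both controls (1.27 and 1.16 TPM), with a log2 fold change of 0.21 (−0.27 to 0.69) that did not pass the test (limma unadjusted p = 0.316, adjusted p = 0.950). ACVR2A lay between 0.24 and 0.45 TPM and ACVR1C, another type I receptor, at or below 0.18 TPM, and neither was tested.

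SMAD2 and SMAD3, which carry the signal of this arm, had similar levels. SMAD2 measured 7.25 and 7.36 TPM in the control libraries and 8.38 and 6.57 TPM in the KO+OE libraries. SMAD3 measured 7.08 and 6.14 TPM in control and 4.79 and 8.08 TPM in KO+OE cells. The KO+OE libraries departed from the controls in opposite directions for both genes, KO+OE 1 being the higher of the pair for SMAD2 and the lower for SMAD3. SKI, a nuclear repressor of SMAD2 and SMAD3 activity, measured 24.1 TPM in both control libraries and 24.8 and 23.4 TPM in KO+OE cells. Its relative SKIL ranged from 0.67 to 0.95 TPM, with both KO+OE values above both controls and under the level tested.

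In the BMP arm, BMP7 was the main ligand transcript. It measured 20.9 and 15.1 TPM in the control libraries and 16.4 and 19.98 TPM in the KO+OE libraries, so that the controls differed more than the groups did. BMP4, the BMP most used to differentiate these cells, measured 1.4 and 1.05 TPM in control and 1.2 and 0.82 TPM in KO+OE cells. BMP2 measured 0.47 and 0.50 TPM in control and 0.31 and 0.44 TPM in KO+OE cells and was not tested. Antagonists of BMP had low levels: CHRD (chordin) and GREM1 (gremlin) did not exceed 0.25 and 0.21 TPM, and NOG (noggin) was listed at 0. All 3 stood below the antagonists of the Nodal/Activin/TGF-beta arm in every library.

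The BMP type I receptors ACVR1 and BMPR1A ranged from 3.28 to 3.94 TPM and from 2.38 to 2.92 TPM, the type II receptor BMPR2 from 0.83 to 1.52 TPM, and BMPR1B did not exceed 0.10 TPM. BMPR1A was the only tested BMP gene with both KO+OE values (2.92 and 2.58 TPM) above both controls (2.47 and 2.38 TPM), and its log2 fold change of 0.13 (−0.24 to 0.50) did not pass the test. SMAD1 measured 1.84 and 1.64 TPM in the control libraries and 1.44 and 1.47 TPM in the KO+OE libraries. SMAD5 measured 1.12 and 1.34 TPM in control and 1.12 and 1.95 TPM in KO+OE cells. SMAD9 measured 0.090 and 0 TPM in control and 0.040 and 0.030 TPM in KO+OE cells. SMAD1 was lower in both KO+OE libraries, by −0.16 on the log2 scale (−0.57 to 0.26), and SMAD6, the inhibitory SMAD that BMP signals induce and whose promoter is printed above, by −0.18 (−0.57 to 0.20), with 2.39 and 2.69 TPM in control and 2.0 and 2.23 TPM in KO+OE cells. Neither passed the test (limma unadjusted p = 0.375 and 0.274, adjusted p = 0.960 and 0.948).

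The ID genes encode inhibitors of differentiation, proteins that bind bHLH transcription factors and keep them off DNA. ID1 measured 141 and 144 TPM in the control libraries and 128 and 131 TPM in the KO+OE libraries. Both KO+OE values lay below both controls, and the gap between the groups exceeded the gap within either group. The control mean was 142 ± 1.83 TPM and the KO+OE mean 129.6 ± 1.85 TPM (SD, n = 2 in each group), a difference of −8.96%. On the log2 scale the difference was −0.13 (95% confidence interval −0.23 to −0.041), with an unadjusted p of 0.0139 and a limma adjusted p of 0.928 over all genes tested, so that it was past the unadjusted threshold only. ID1 ranked 165 by p among the 12319 genes tested.

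ID3 measured 108.8 and 108.9 TPM in the control libraries and 100.8 and 102.9 TPM in the KO+OE libraries. Its mean differed by −6.44%, again with no overlap, and the log2 difference was −0.095 (−0.19 to 0.0018, limma unadjusted p = 0.0530, adjusted p = 0.931), which did not pass. ID2 measured 2.21 and 3.06 TPM in control and 2.99 and 2.01 TPM in KO+OE cells, with overlapping groups. ID4, with a mean under 1 TPM, measured 0.35 and 0.31 TPM in control and 0.15 TPM in both KO+OE libraries. The sum of the ID genes was thus 252 and 256 TPM in control and 232 and 236 TPM in KO+OE cells. The mitochondrial share was higher in both KO+OE libraries, and its part in this difference was not tested. Rescaling by median ratios gives each library the same median ratio to the genes' geometric means. After this rescaling the log2 difference of ID1 was −0.12 (limma unadjusted p = 0.0248). After a correction for GC content, chosen after the data had been seen, it was also −0.12 (limma unadjusted p = 0.0222). Without control replicate 2 or without KO+OE replicate 1 the log2 difference of ID1 was −0.12 in each case and no longer past the unadjusted threshold (limma unadjusted p = 0.0647 and 0.0527). The same held without the trended prior (limma unadjusted p = 0.108).

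**Figure D2:**
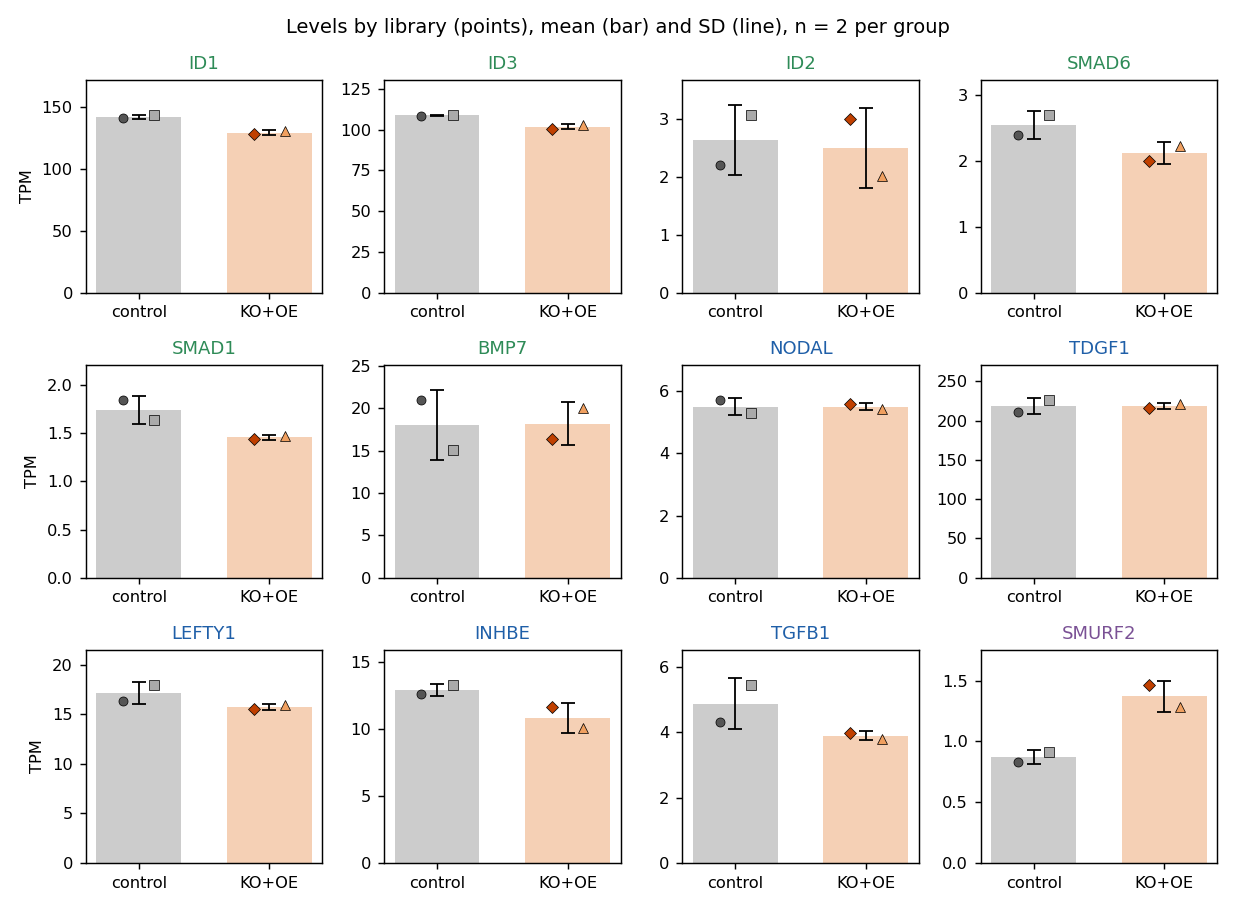
Levels in TPM of 12 of the genes in each library (points), with the mean (bar, from 0) and SD (line) of the 2 libraries per group; each panel has its own axis. ID1 and ID3 are lower in both KO+OE libraries, with means that differ by −8.96% and −6.44%, while NODAL, TDGF1, BMP7 and ID2 overlap between the groups.

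Components shared by both arms had intermediate levels. SMAD4, the partner of all receptor SMADs, ranged from 3.50 to 5.69 TPM, and SMAD7, an inhibitory SMAD for both arms, from 2.03 to 3.56 TPM, with overlapping groups and with control libraries at both ends of each range. The ubiquitin ligase SMURF1, which marks SMADs and receptors for degradation, ranged from 5.78 to 6.03 TPM. Its paralog SMURF2 measured 0.83 and 0.91 TPM in the control libraries and 1.46 and 1.28 TPM in the KO+OE libraries. Both KO+OE values of SMURF2 lay above both controls, with a log2 fold change of 0.34 (−0.12 to 0.80) that did not pass the test (limma unadjusted p = 0.115, adjusted p = 0.932). GDF15, a stress-responsive ligand, measured 191 and 196 TPM in control and 194 and 199 TPM in KO+OE cells, a log2 fold change of 0.021 (−0.071 to 0.11).

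Summed over its genes, the Nodal/Activin/TGF-beta arm held 330 and 347 TPM in the control libraries and 333 and 336 TPM in the KO+OE libraries. The BMP arm held 288 and 286 TPM in control and 263 and 271 TPM in KO+OE cells. The groups overlapped for the former sum and not for the latter. The ratio of the sums was 1.15 and 1.21 in control cells and 1.27 and 1.24 in KO+OE cells, with the KO+OE libraries above the controls. A single gene or family set these sums, however: TDGF1 made up 63.9% to 65.8% of the Nodal/Activin/TGF-beta sum and the ID genes 87.1% to 89.5% of the BMP sum. Without TDGF1 and the ID genes the ratio was 3.33 and 4.04 in control and 3.84 and 3.29 in KO+OE cells, and the groups overlapped. No test was made of these sums, whose members are not replicates.

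**Figure D3:**
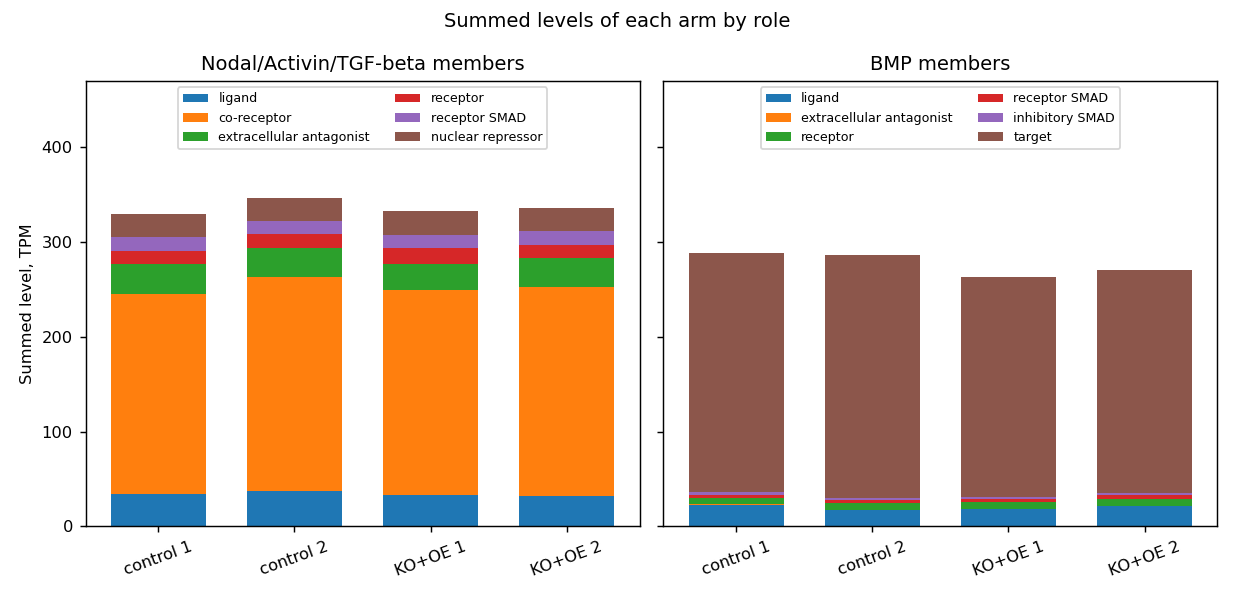
Summed level in TPM (axis from 0) of the genes of each arm in each library, split by role. TDGF1 fills most of the left bars and the ID targets most of the right bars, where the KO+OE libraries reach 263 and 271 TPM against 288 and 286 TPM in the controls.

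The arms also differed in their signal carriers within each library. SMAD2 and SMAD3 together measured 14.3, 13.5, 13.2 and 14.7 TPM in control 1, control 2, KO+OE 1 and KO+OE 2, against 3.05, 2.98, 2.60 and 3.45 TPM for SMAD1, SMAD5 and SMAD9. In every library the former sum was the higher, and for both sums the range of the KO+OE libraries enclosed that of the controls. The BMP targets ID1 and ID3 stood above LEFTY1, a Nodal target, in every library. The BMP targets ID2 (2.01 to 3.06 TPM) and ID4 (0.15 to 0.35 TPM) stood below LEFTY1 in every library. Which arm was more active was not tested.

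Across the 33 tested genes, 0 passed an adjusted p of 0.05, against 1 of all 12319 genes (0.00812%). At an unadjusted p under 0.05 there was 1 member, ID1, or 3.03% of those tested, against 5.33% of all genes. In that count 0 members were higher in KO+OE cells (2.26% of all genes) and 1 was lower (3.06% of all genes), and the members' shares are near the background. The groups did not overlap for 3 members with KO+OE above (14.5% of all genes) and for 8 members with KO+OE below (19.6% of all genes), and the latter are 24.2% of the members tested. Of the 8 that were lower, INHBE, TGFB1 and LEFTY1 belong to the Nodal/Activin/TGF-beta arm, SMAD1, SMAD6, ID1 and ID3 to the BMP arm, and SMURF1 is shared. The 3 that were higher were TGFBR2, BMPR1A and SMURF2.

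The median log2 fold change was 0.00060 over the 33 tested members, of which 17 were positive and 16 negative, and −0.012 over all genes tested. It was 0.00060 over the 17 genes of the Nodal/Activin/TGF-beta arm and −0.085 over the 11 genes of the BMP arm, where 7 were negative and 4 positive. For all 33 members the 95% confidence interval lay within a 2-fold change in either direction on the log2(TPM + 1) scale, against 92.6% of all genes. This scale compresses the differences of genes near 1 TPM, so the statement is weakest for SMURF2, CER1, BMP4 and BMPR2. The difference between replicates followed level: the control libraries differed by a median absolute log2 value of 0.033 for the 4 genes at or above 50 TPM, 0.089 for the 13 genes from 5 to 50 TPM and 0.17 for the 16 genes from 1 to 5 TPM. The mean absolute distance between libraries over the tested members was 0.18 within control, 0.18 within KO+OE and 0.16 to 0.20 between the groups.

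**Figure D4:**
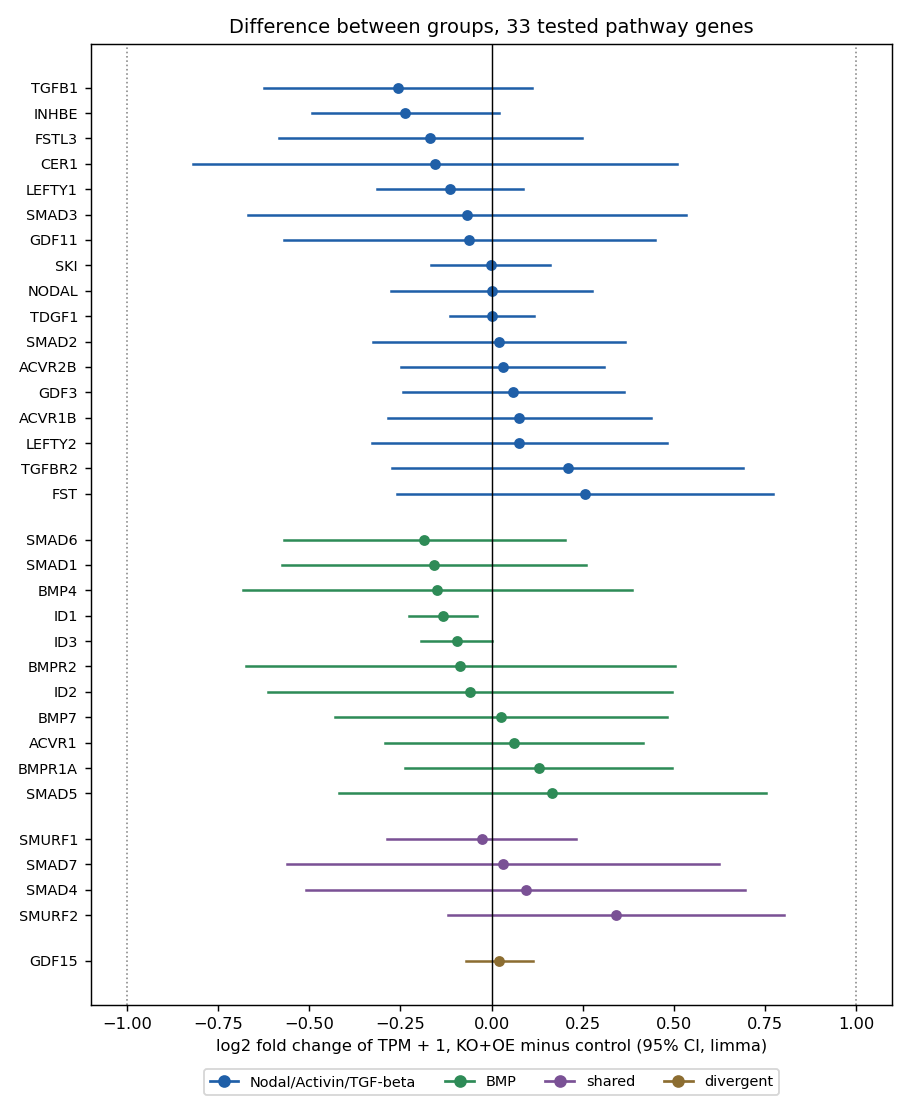
Log2 fold change of TPM + 1, KO+OE minus control, with limma's 95% confidence interval, for the 33 tested genes by arm; dotted lines mark a 2-fold change. The interval of ID1 (−0.23 to −0.041) is the only one that leaves out 0, and none reaches the dotted lines.

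Other genes of the pathway were taken from a list. It held 82 further genes (ligands, receptors, ligand-processing enzymes, latent TGF-beta binding proteins, SMAD partners, regulators and targets), of which 41 were tested. By limma 0 of these passed an adjusted p of 0.05 (0.00812% of all genes) and 0 an unadjusted p of 0.05 (5.33% of all genes). The latter count was 3 or 1 with KO+OE replicate 2 or 1 left out, 1 with the replicate block and 2 without the trended prior. The list had a median log2 fold change of −0.019, 20 positive and 21 negative. The 5 with the highest means were FKBP1A, which binds type I receptors and holds them inactive (308 to 332 TPM), TGIF1, a SMAD2 corepressor (239 to 265 TPM), FOXH1, the DNA-binding partner of SMAD2 in the Nodal response (122 to 128 TPM), the ubiquitin ligase STUB1 (101 to 107 TPM) and NOMO1, a Nodal modulator (81.6 to 85.9 TPM). All 5 overlapped between the groups. The groups did not overlap for 1 of the 41 tested genes with KO+OE above and 8 with KO+OE below. Together these are 22.0% of the list, against 34.1% of all genes. BAMBI, a pseudoreceptor that dampens both arms, is 1 of the 8 and was named after its values had been seen. It measured 6.45 and 6.23 TPM in control and 5.49 and 5.42 TPM in KO+OE cells and did not pass the test (limma unadjusted p = 0.128, adjusted p = 0.937). Smaller p-values were given by TGIF2 (log2 fold change −0.50), PPM1A (0.38) and PMEPA1 (−0.32). None of these 3 passed either (limma unadjusted p = 0.0614, 0.0888 and 0.0905, adjusted p = 0.931 for each).

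The rule did not use base composition, and levels and differences both varied with it. Over the 47 members with a value above 0, Spearman's rho between mean level and the GC content of the transcript was 0.55, and between level and transcript length −0.36. The tested members had a median GC content of 51.1% and those not tested 42.2%. Over the 33 tested members, rho between GC content and log2 fold change was −0.45, against −0.072 over 12147 genes with a GC content. Members lower in both KO+OE libraries had a median GC content of 57.3%, those higher 41.7% and those that overlapped 49.8%, where all genes tested gave 54.0%, 49.8% and 51.6%. All points of a correlation share the same 4 libraries, so it is a description across genes. Over all genes, rho between GC content and a library's deviation from the mean was 0.061 in control 1, 0.038 in control 2, −0.12 in KO+OE 1 and 0.053 in KO+OE 2, so that KO+OE 1 stood apart in this respect. After the correction for GC content, chosen after the data had been seen, the log2 difference was −0.12 for ID1 and −0.080 for ID3, and the median over the tested members was 0.014.

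**Figure D5:**
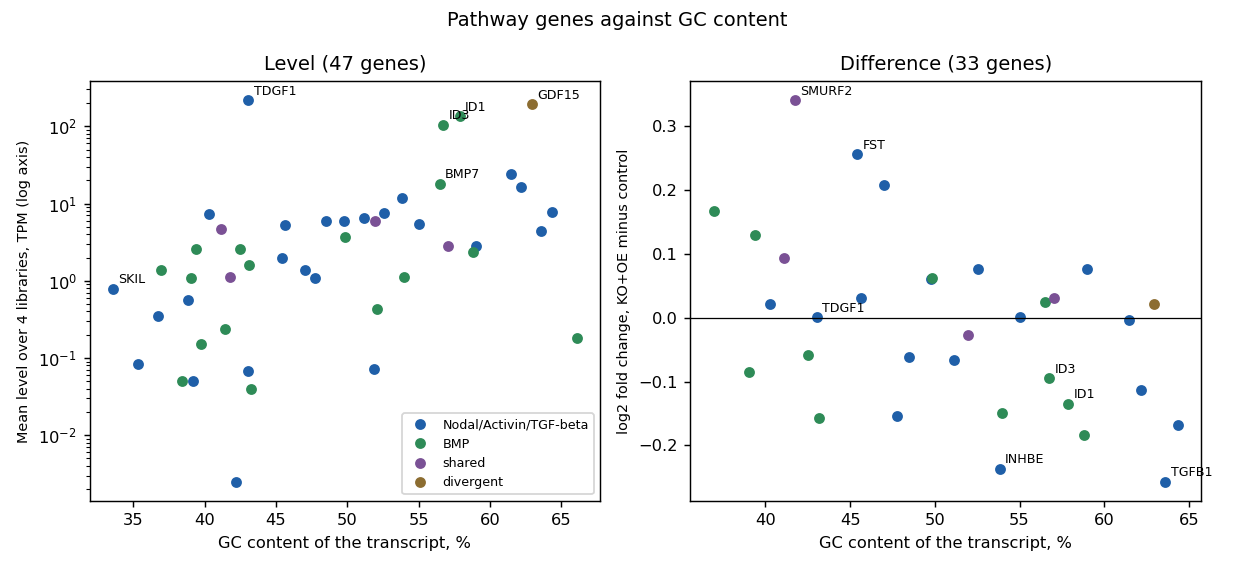
GC content of the transcript (%) against mean level in TPM (left, log axis, 47 genes) and against the log2 fold change, KO+OE minus control (right, 33 genes), colored by arm. Levels tend to be higher at high GC content (rho 0.55), and the log2 fold changes are lower there (rho −0.45).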

How the data were processed

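Polyadenylated RNA of 4 H9 libraries was sequenced in pairs of reads, per the labels. The submitters' processing notes name HISAT2, featureCounts, Subread, DESeq2 and hg38; versions, annotation and strand setting are not given in the sources used here. The authors deposited 1 table of 60671 genes whose header names no unit. Its values were read as TPM, since each deposited column holds decimals and sums to 986853 to 987078, and there were 0 other columns of per-sample values. Reads of genes that overlap on opposite strands may not have been separated, and such overlaps covered at most 11.7% of the exonic bases of a member.

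Groups were taken from sample titles. Nothing states that replicates came from separate cultures, so p-values measure only the spread between these libraries, which may be technical. Groups were compared with limma 3.58.1 in R 4.3.3 on log2(TPM + 1), with group as the only term, a trended prior and a two-sided test, over genes whose mean reached 1 TPM. The Benjamini-Hochberg adjustment covered the 12319 genes tested, never the members alone. The step was tested on simulated data. Fold changes on this scale understate those of low genes. Values in every library are given for members at or above a mean of 10 TPM, the 5 tested members with the smallest p, and ligands, receptor SMADs and targets. Members and lists were chosen with earlier results of these data known. Positions and promoters came from RefSeq by symbol, GC content and shared sequence from GENCODE release 44. Python 3.11.15, pandas 2.3.3, scipy 1.17.1 and matplotlib 3.10.9 were used. Alternatives were other pseudocounts, filters, scalings and priors, a replicate block, a GC correction and leaving out each library.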

Additional observations from a re-analysis of the deposited data

How the results depend on the processing

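No member passed an adjusted p of 0.05 under any of the 13 alternatives (limma; the smallest adjusted p of a named member was 0.852, for SMURF2 without the trended prior). The count over all genes was 1 as reported and 0 with a pseudocount of 0.1 or 5, no filter, a filter at 5 TPM, quantile normalization or the replicate block, and 0 to 1 with a library left out. The replicate numbers did not pair the libraries (correlation of deviations −0.049). Members at an unadjusted p under 0.05 were 2 with a pseudocount of 5 (ID1 and ID3), 3 with no filter (ID1, ID3 and ID4, among 1314 genes in all) and 0 to 1 with a library left out, 0 without control replicate 2. ID1 and ID3 kept their direction in 13 of 13 alternatives, with log2 values of −0.15 to −0.11 and −0.11 to −0.080. ID1 passed the unadjusted threshold in 10 of them. It missed it without the trended prior, where SMURF2 passed in its place, without control replicate 2, and without KO+OE replicate 1, where INHBE passed in its place.

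The median over the members was 0.014 after the GC correction, chosen after seeing the data, and −0.019 to −0.0031 with a library left out. The BMP median was −0.033 with a pseudocount of 5, −0.059 with no filter and −0.12 to −0.042 with a library left out. The log2 difference of the ratio of arm sums was 0.089, against −0.016 without SKI, SKIL and the ID genes and 0.036 as a mean of log2 values. Of 19 named members, TDGF1 reversed to −0.0016 after the GC correction, and SKI to 0.016 after it, 0.0095 after median-ratio rescaling and 0.0050 after quantile normalization. With a library left out, values ranged from −0.012 to 0.066 for NUDT21, −0.044 to 0.045 for NODAL, −0.038 to 0.16 for GDF3, −0.33 to 0.21 for GDF11, −0.048 to 0.049 for TDGF1, −0.13 to 0.18 for SMAD2, −0.39 to 0.26 for SMAD3, −0.042 to 0.036 for SKI, −0.20 to 0.25 for BMP7, −0.071 to 0.41 for SMAD5 and −0.26 to 0.14 for ID2, so no direction is given for these. A lone library is assumed to vary like the other group. The cause of these shifts was not tested. With 2 libraries a group and unknown depth, small differences may have gone undetected at any level, above all for genes under 5 TPM.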
